A study of Mus musculus with 48 samples.

Results

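A set of 10 genes that mark the sinusoidal endothelial cells of the liver were followed across 48 livers of FCG mice, a model that separates sex chromosomes from gonads: Stab1, Stab2, Clec4g, Lyve1, Kdr, Pecam1, Tek, Tie1, Cdh5 and Acvrl1. They were taken by symbol from a count table of 55414 genes, and 10 of 10 were found and passed the filter on low counts that left 15414 genes to test. Liver RNA was sequenced from 8 groups of 6 mice each, on a C57BL/6 background. In FCG mice the testis-determining gene Sry is missing from the Y chromosome and is carried as an autosomal transgene, so that the sex chromosomes and the gonads vary independently. The 4 genotypes were XX with ovaries (XX Ov), XY- with ovaries (XY Ov), XX;SryTg with testes (XX Te) and XY-;SryTg with testes (XY Te), and every XY mouse carried the Y chromosome that lacks Sry. Each genotype was studied with its gonads (Intact) or after gonadectomy (GDX) at 75 days of age. All 48 mice ate a high-fat diet (HFD, 60% of calories from fat) that began at 15 to 17 weeks of age, and no mouse on another diet was part of the comparison. According to the labels the diet lasted 11 weeks in intact mice and 15 weeks in GDX mice, and the methods give slightly different durations. GDX and intact mice therefore differ in the time on the diet and in age, and these cannot be told apart from the loss of the gonads. The sources used here do not say whether the libraries of the 2 cohorts were made or sequenced together, so a batch of that kind cannot be told apart from GDX either. Whole liver was sequenced, so fewer endothelial cells and less RNA per endothelial cell cannot be told apart either.

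Sinusoidal endothelial cells line the capillaries of the liver and lack a continuous basement membrane, with open pores that let plasma reach the hepatocytes. They clear waste macromolecules from blood through scavenger receptors, hold the growth factor receptors of the vessel wall, and send signals such as Wnt ligands and bone morphogenetic proteins (BMPs) to the hepatocytes beside them. Stab1 and Stab2 encode the stabilins, large scavenger receptors. Clec4g encodes the lectin LSECtin, and Lyve1 a hyaluronan receptor shared with lymphatic vessels. Kdr encodes VEGFR2, the main receptor for vascular endothelial growth factor (VEGF). Tek encodes TIE2, the angiopoietin receptor, and Tie1 its orphan partner. Pecam1 (CD31) and Cdh5 (VE-cadherin) encode proteins of the junctions between endothelial cells, and Acvrl1 encodes ALK1, the receptor for the circulating ligands BMP9 and BMP10. Pecam1 is also made by leukocytes and platelets, and Acvrl1 by Kupffer cells, the resident macrophages of the sinusoid.

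Promoter sequences show where the members that moved together and the one that moved apart begin. The RefSeq table (GRCm38.p6, which is not the GRCm39 build of the counts) held 6 of the 10 members: Stab1, Stab2, Clec4g, Kdr, Tek and Tie1. The 250 bases upstream of the start are printed for the stabilin pair, for Tie1, and for Clec4g, which followed the others least. They run 5′ to 3′ on the strand of the gene, at chr14:31168642-31168891 (Stab1), chr10:87007943-87008192 (Stab2), chr4:118489850-118490099 (Tie1) and chr8:3720652-3720901 (Clec4g), all on the minus strand. Capitals mark the letters GGAA and their complement TTCC, the core of sites for ETS factors, a family with many members in endothelial cells.
Stab1: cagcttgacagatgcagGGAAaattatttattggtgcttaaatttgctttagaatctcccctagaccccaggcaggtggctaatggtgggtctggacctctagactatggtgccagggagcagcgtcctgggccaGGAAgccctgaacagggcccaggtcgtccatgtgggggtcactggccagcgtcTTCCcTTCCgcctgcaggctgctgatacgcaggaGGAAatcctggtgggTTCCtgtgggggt
Stab2: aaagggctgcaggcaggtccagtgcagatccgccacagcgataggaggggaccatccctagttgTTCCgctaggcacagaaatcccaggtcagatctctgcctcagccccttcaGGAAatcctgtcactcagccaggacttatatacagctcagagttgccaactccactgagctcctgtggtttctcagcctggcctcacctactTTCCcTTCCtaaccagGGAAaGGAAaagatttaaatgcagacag
Tie1: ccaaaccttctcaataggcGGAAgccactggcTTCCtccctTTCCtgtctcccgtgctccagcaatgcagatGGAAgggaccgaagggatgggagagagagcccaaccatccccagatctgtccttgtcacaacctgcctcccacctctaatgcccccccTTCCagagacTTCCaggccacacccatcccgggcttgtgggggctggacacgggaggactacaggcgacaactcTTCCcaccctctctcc
Clec4g: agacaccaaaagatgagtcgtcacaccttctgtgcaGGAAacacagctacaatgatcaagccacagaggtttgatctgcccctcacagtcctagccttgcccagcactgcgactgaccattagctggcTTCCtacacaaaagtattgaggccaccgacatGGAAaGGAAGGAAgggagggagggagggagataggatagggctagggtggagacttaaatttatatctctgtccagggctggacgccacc
These 4 sequences held 6, 6, 7 and 5 matches on the 2 strands, Kdr held 4 and Tek 2. The median over all 32851 promoters of the same length was 3, and 93.4% of them held at least 1 match. The GATA letters (GATAA or TTATC) were in 0 of the 6 windows and in 22.6% of all promoters. Such matches describe letters only.

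Each library held 13071874 to 20045141 reads on genes (median 16577748), so the floor of 3 reads was 0.150 to 0.230 CPM, the count scaled to the reads on genes in its library. Intervals and floors of this kind cover counting error only. Reads that fell outside genes were 3.47% to 6.20% of all reads in intact mice and 8.52% to 11.3% in GDX mice, with no overlap, so every difference between GDX and intact mice is also a difference between libraries of this kind. Within GDX mice this share was 8.52% to 10.1% in XX and 9.98% to 11.3% in XY livers, with little overlap. The XX and XY comparison of GDX mice therefore also compares libraries that differ in this share. Its part in those values was not tested. Xist and the Y-linked genes separated all 24 XX from all 24 XY libraries as labelled. Within groups, the library of XY Te Intact mouse 89033 correlated least with its group mates (r = 0.962), and it is left out in turn with every other mouse in the closing section.

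No member was near the floor in any liver. Per kilobase of transcript (lengths from the older NCBIM37 annotation), Clec4g had the highest mean level at 26.3 CPM per kb ± 8.91 (SD, n = 48). Pecam1 (11.4 CPM per kb), Cdh5 (8.36), Kdr (7.87) and Stab2 (7.59) followed, then Stab1 (4.88), Lyve1 (3.79), Tek (2.67), Tie1 (2.35) and Acvrl1 (1.31). Acvrl1 had the fewest reads, 22 to 277 per library with a median of 67.5. All further levels are normalized CPM, that is CPM after TMM scaling, and they are not divided by length. Within a gene, most groups adjacent in the order of their means lay closer than the larger of their SDs. The exceptions were 6 of the 70 gaps. In Stab1, Stab2 and Clec4g the gap lay between GDX and intact groups, and in Pecam1 and Acvrl1 it set the XY GDX groups apart from the others, with a further gap in Pecam1 below XY Ov Intact.

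**Figure D1:**
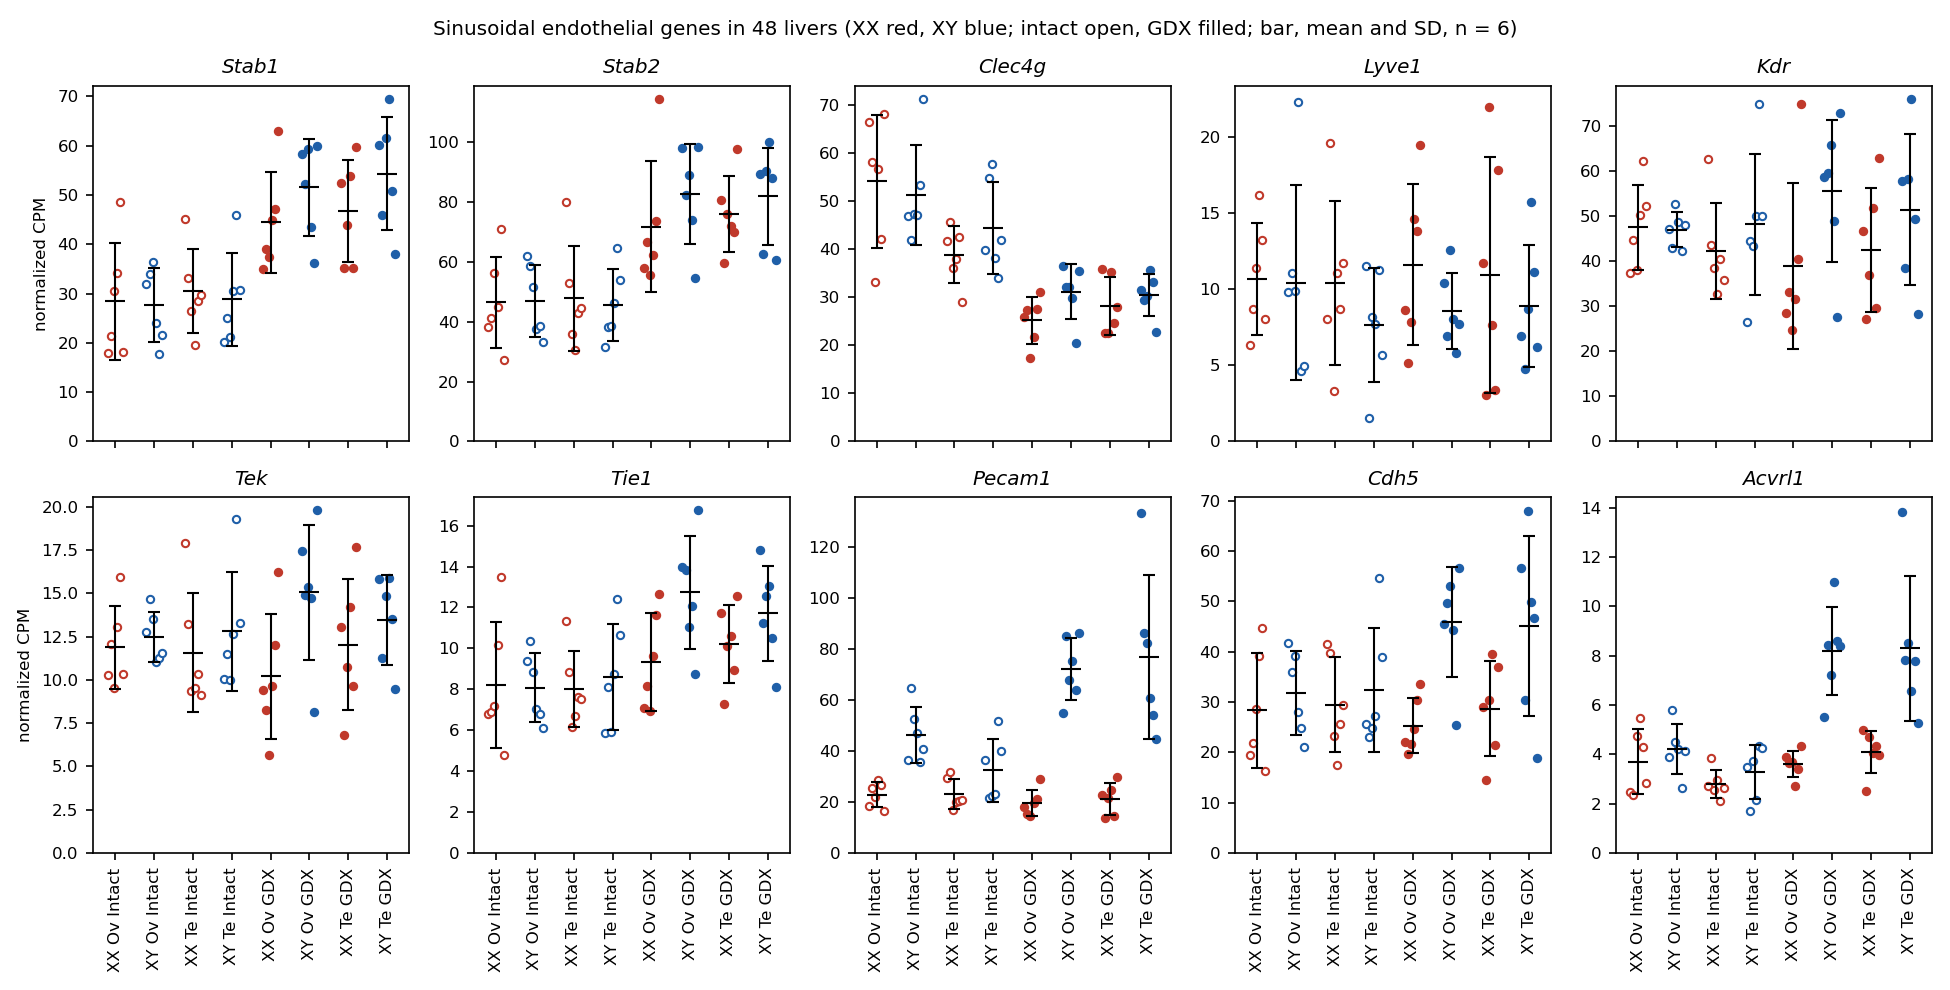
Normalized CPM (y axis, from 0) of the 10 genes in each of 48 livers by group (x axis), with XX in red, XY in blue, intact open and GDX filled; black bars give the mean and SD of 6 mice. Pecam1 and Acvrl1 were highest in the XY GDX livers, Stab1 and Stab2 were higher and Clec4g lower in GDX than in intact livers, and Lyve1 overlapped in all groups.

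The first question was whether the sex chromosomes set the level of these genes once the gonads are gone. Among GDX mice, 3 of the 10 members were lower in XX than in XY livers, and they were the junction genes Pecam1 and Cdh5 and the BMP receptor Acvrl1. Of all 15414 genes, 14.8% were lower and 19.5% higher in XX than in XY GDX livers at the same threshold (adjusted p under 0.05). The stabilins, Clec4g, Lyve1, Kdr, Tek and Tie1 did not pass.

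Pecam1 showed the largest difference among the members. Its level in XY Ov GDX livers was 55.1 at the lowest, 71.7 at the median and 86.2 at the highest. In XY Te GDX livers it was 44.6, 71.7 and 134. In XX Ov GDX livers the same values were 14.7, 18.8 and 29.0, and in XX Te GDX livers 13.5, 22.2 and 29.7. All 12 XY GDX livers lay above all 12 XX GDX livers, whichever gonad had been removed. The mean was 74.7 ± 23.3 in XY and 20.4 ± 5.53 in XX (SD, n = 12 each), 3.66 times higher in XY. The log2 difference, XX minus XY, was -1.87 (SE 0.17, adjusted p = 1.45e-12).

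Acvrl1 behaved the same way at a lower level. XY Ov GDX livers had 5.51 at the lowest, 8.41 at the median and 11.0 at the highest, and XY Te GDX livers 5.27, 7.80 and 13.8. XX Ov GDX livers had 2.72, 3.65 and 4.33, and XX Te GDX livers 2.53, 4.18 and 4.98. Again the 12 XY livers were all above the 12 XX livers, with means of 8.23 ± 2.32 and 3.85 ± 0.728 (SD, n = 12 each). The log2 difference was -1.10 (SE 0.16, adjusted p = 1.7e-07). Ranges of XY and XX GDX livers that do not overlap with XY higher were found for 5.55% of all genes tested and for 2 of the 10 members.

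Cdh5 overlapped more. XY Ov GDX livers ran from 25.5 through a median of 47.6 to 56.6 and XY Te GDX livers from 18.8 through 48.3 to 67.9. XX Ov GDX livers ran from 19.6 through 23.2 to 33.5 and XX Te GDX livers from 14.4 through 29.7 to 39.5. Of the 12 XY livers, 9 lay above every XX liver, and the log2 difference was -0.76 (SE 0.19, adjusted p = 0.0016).

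The receptors Kdr (log2 difference -0.39, SE 0.17, adjusted p = 0.066), Tek (-0.36, SE 0.15, adjusted p = 0.054) and Tie1 (-0.32, SE 0.14, adjusted p = 0.076) had values on the same side without passing. They lie close to the threshold: under the scaling by library totals, by DESeq2 size factors, or with offsets for transcript length and GC content, Kdr, Tek and Tie1 passed, and Clec4g passed under the first and the last of these, so that the number of members lower in XX was 7, 6 and 7 in place of 3. Stab1 (-0.22, SE 0.15) and Stab2 (-0.16, SE 0.15) did not pass under any setting. Lyve1, with the largest SE of the members, had the opposite sign (0.37, SE 0.29, adjusted p = 0.35). The median log2 difference over the 10 members was -0.34, against 0.083 over all genes tested, and a scaling by library totals moved the median of all genes by -0.18.

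Among intact mice, Pecam1 alone of the 10 members passed, lower in XX, where 6.42% of all genes were lower and 4.27% higher. Its level in XY Ov Intact livers was 35.7 at the lowest, 43.9 at the median and 64.6 at the highest, and in XY Te Intact livers 21.4, 29.7 and 51.9. In XX Ov Intact livers it was 16.4, 23.8 and 28.8, and in XX Te Intact livers 16.9, 20.5 and 31.7. The XY Ov livers were all above the XX livers, and the XY Te livers overlapped with them. The log2 difference was -0.75 (SE 0.16, adjusted p = 0.0011). Acvrl1 (-0.20, SE 0.16, adjusted p = 0.485) and Cdh5 (-0.15, SE 0.19, adjusted p = 0.69) did not pass. In the same livers 8 of 12 Kupffer cell markers, 5 of 6 neutrophil markers and 2 of 10 lymphocyte markers were lower in XX, with Kupffer cell sums of 396 to 1198 in XX and 496 to 1632 in XY, and their part in the Pecam1 difference was not tested.

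Whether the XX and XY difference itself changed with GDX was tested as an interaction. It passed for Pecam1 (-1.12, SE 0.23, adjusted p = 0.0098) and Acvrl1 (-0.90, SE 0.22, adjusted p = 0.025), 2 of the 10 members, where 1.72% of all genes passed with the same sign. Pecam1 had a mean of 23.1 in XX Intact, 20.4 in XX GDX, 39.4 in XY Intact and 74.7 in XY GDX livers. Acvrl1 had means of 3.25, 3.85, 3.74 and 8.23 in the same order. In XX mice the means of intact and GDX livers differed by less than 1 SD for both genes. For Acvrl1 the call was lost without XX Te Intact mouse 14614 (-0.84, adjusted p = 0.057). The interaction did not pass for Cdh5 (-0.61, SE 0.27, adjusted p = 0.28), and it did not pass for the other 7 members.

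Over all 48 mice the 3 genes Pecam1 (-1.31, SE 0.12, adjusted p = 8.2e-13), Acvrl1 (-0.65, SE 0.11, adjusted p = 7e-06) and Cdh5 (-0.45, SE 0.13, adjusted p = 0.0065) were lower in XX, where 14.8% of all genes were lower and 21.9% higher. This comparison uses the same mice as the ones above. The other 7 members did not pass, and without XX Ov GDX mouse 87592 the number rose from 3 to 5 with Kdr (-0.31) and Tek (-0.28).

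**Figure D2:**
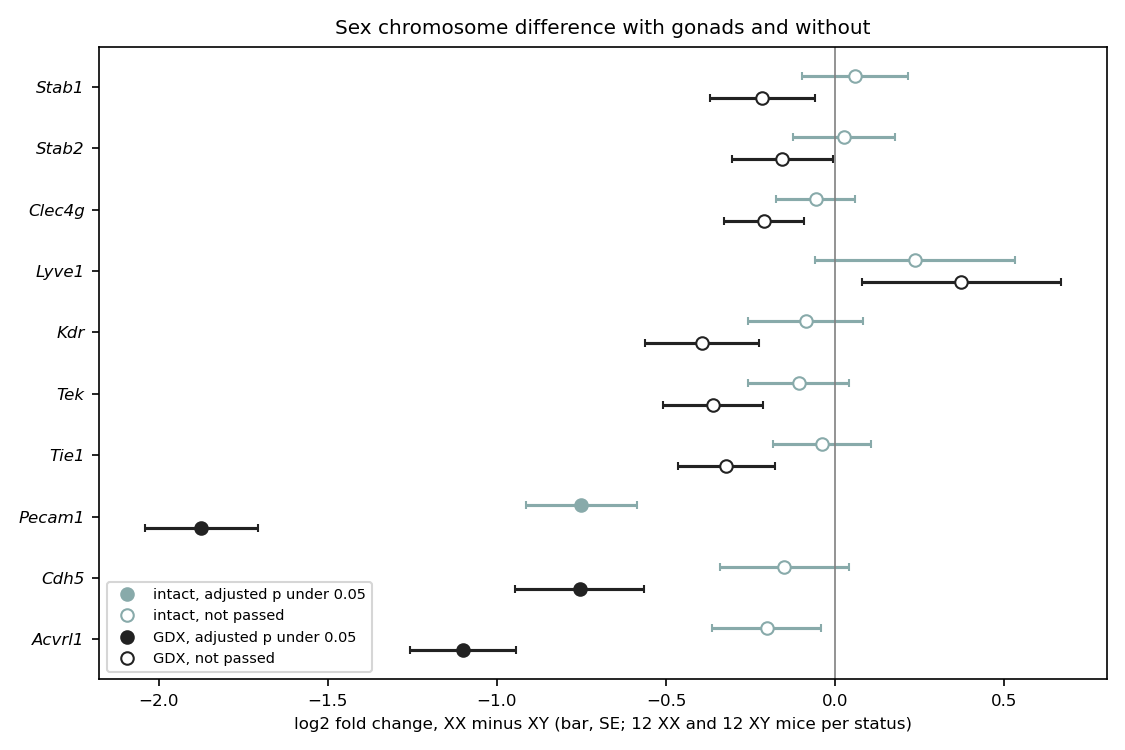
Log2 fold change, XX minus XY (x axis), of each gene (y axis) in intact mice (grey) and GDX mice (black), with 12 XX and 12 XY mice in each and bars of 1 SE; filled points passed an adjusted p of 0.05. Pecam1 lies at -0.75 in intact and -1.87 in GDX mice, Acvrl1 and Cdh5 are left of 0 past the threshold only among GDX mice, and Lyve1 lies to the right of 0 without passing.

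Transcripts of Kupffer cells, lymphocytes and neutrophils moved with the sex chromosomes in the same livers. Among GDX mice, 11 of 12 Kupffer cell and macrophage markers were lower in XX, and their summed level ran from 260 to 637 normalized CPM in XX and from 666 to 2057 in XY livers. Of 10 lymphocyte markers 8 were lower in XX, with sums of 13.5 to 31.9 in XX and 115 to 323 in XY. Most of this sum is the pan-leukocyte gene Ptprc, at an average log2 CPM of 6.17. The next highest of the 10, Cd79b, was at 2.33. All 6 neutrophil markers tested were lower, with sums of 2.50 to 7.80 in XX and 15.2 to 118 in XY.

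None of these 3 sums overlapped between XX and XY GDX livers. The pan-leukocyte gene Ptprc (CD45) differed by -3.22 (SE 0.25, adjusted p = 2.6e-14), and the macrophage receptor Marco by -3.39 (SE 0.53, adjusted p = 1.6e-06). The neutrophil markers Ly6g, Mpo and Cxcr2 had at most 3 reads in 24 or more of the 48 mice, and no marker of these lists was at 0 in every mouse. The summed hepatocyte markers overlapped (90452 to 127442 in XX, 89632 to 115709 in XY). This sum leans on Alb, with an average log2 CPM of 16.28 against 12.99 for Apob, the next highest. Counted singly, 3 of 9 hepatocyte markers tested were higher in XX and 0 lower. Of 6 cholangiocyte markers tested 4 were higher and 0 lower, where 19.5% of all genes were higher and 14.8% lower. The part of the leukocyte transcripts in the Pecam1, Acvrl1 and Cdh5 differences was not tested.

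**Figure D3:**
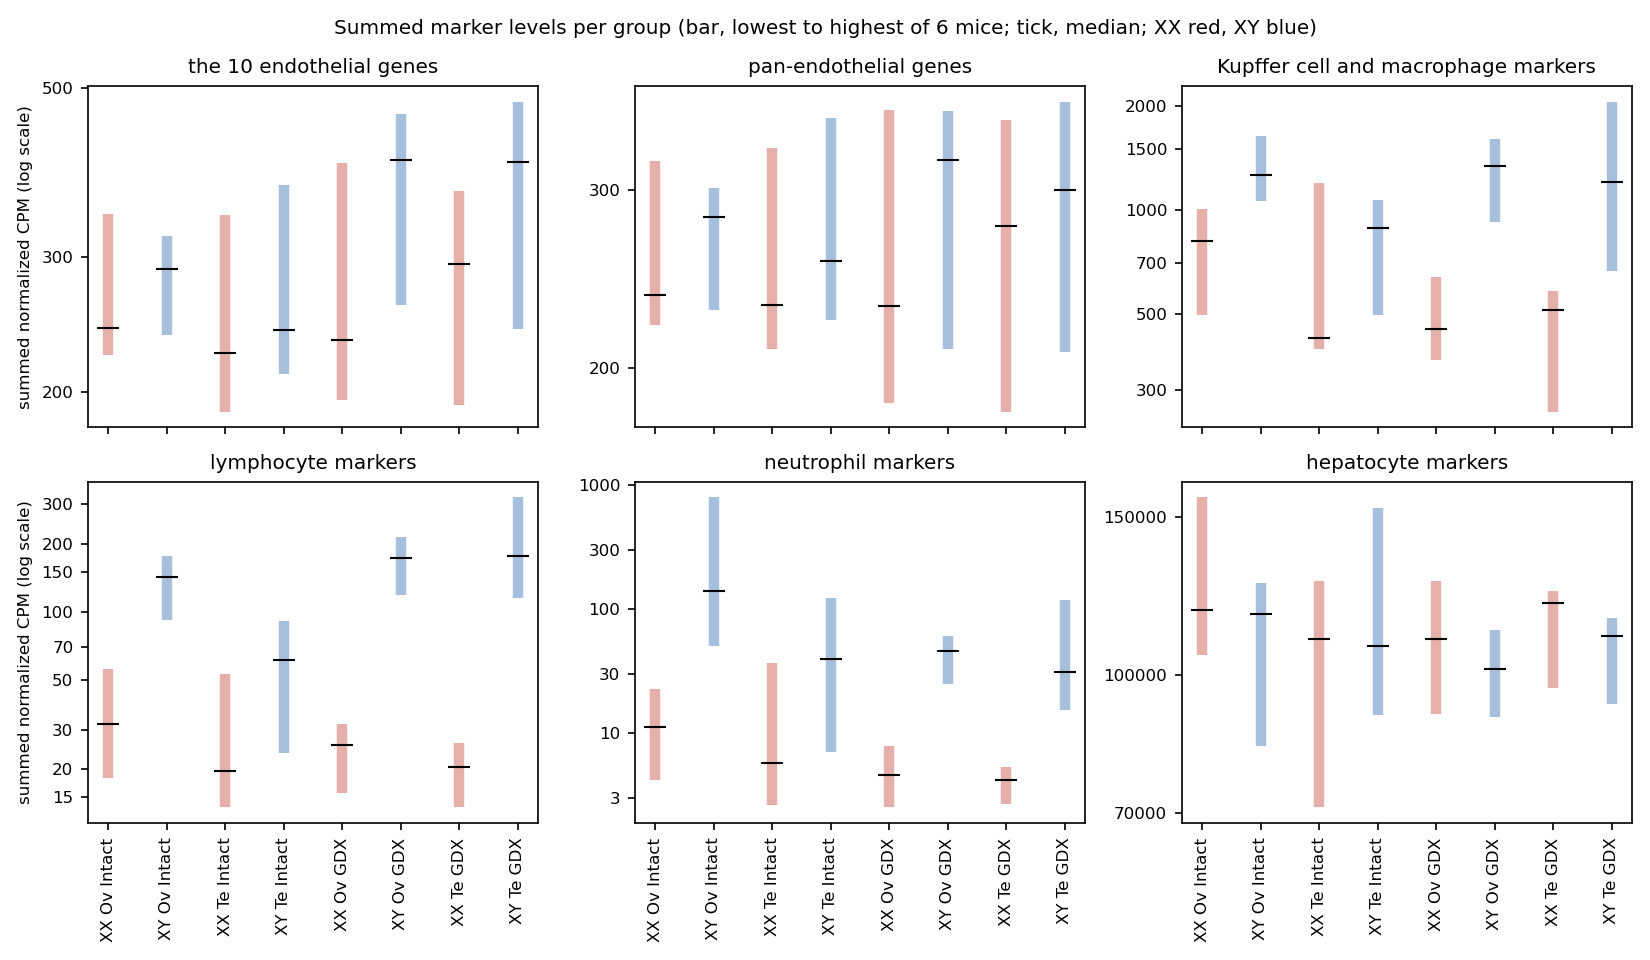
Summed normalized CPM (log y axis) of 6 marker lists by group (x axis); bars span the lowest to the highest of 6 mice, ticks mark the median, XX is red and XY blue. The lymphocyte (mostly Ptprc) and neutrophil sums of XX and XY GDX livers do not overlap, nor do the Kupffer cell sums (at most 637 in XX, at least 666 in XY), while the pan-endothelial sums overlap in all groups.

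Other endothelial lists were counted in the same comparison of GDX mice, where 14.8% of all genes were lower and 19.5% higher in XX. Of 22 pan-endothelial genes, 10 were lower in XX and 0 higher, with a median log2 difference of -0.28. The largest were the ETS factor Fli1 (-1.38, SE 0.17, adjusted p = 7.2e-09) and the adhesion gene Icam2 (-1.06, SE 0.16, adjusted p = 9.7e-07), and both genes are also expressed by blood cells. Of 19 other sinusoidal genes tested, 8 were lower and 1 higher (median -0.31), led by the anticoagulant receptor Thbd (-1.14, SE 0.18, adjusted p = 2.8e-06) and the Wnt ligand Wnt9b (-0.86, SE 0.24, adjusted p = 0.0047). Of 11 tested genes of vessels outside the sinusoid, 3 were lower. The Notch and junction list had 2 of 14 lower and 1 higher, close to the shares of all genes, with the endothelial receptor Notch4 at -1.03 (SE 0.15, adjusted p = 1.9e-07).

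The VEGF and angiopoietin list holds receptors and co-receptors as well as ligands. Of its 12 tested genes, Angpt2, an antagonist of TIE2, was lower in XX (-1.04, SE 0.25, adjusted p = 0.00085) and Angpt1, its agonist, higher (0.69, SE 0.20, adjusted p = 0.0061). The other 10, Vegfa among them, did not pass.

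The ALK1 list also holds genes of wider BMP signalling, such as Bmp2, Bmp6 and Bmpr1a. Of its 20 tested genes, 7 were lower in XX GDX livers and 1 higher, with a median of -0.17. The circulating ligands Gdf2, which encodes BMP9 (-0.28, SE 0.09, adjusted p = 0.012), and Bmp10 (-0.38, SE 0.13, adjusted p = 0.021) were lower, as was Bmp6 (-0.72, SE 0.19, adjusted p = 0.0028), the endothelial signal for hepcidin. The transducer Smad1 (-0.42, SE 0.07, adjusted p = 2.1e-06), its inhibitors Smad6 (-0.39, adjusted p = 0.022) and Smad7 (-0.43, adjusted p = 0.0066) and the target Id3 (-0.51, adjusted p = 0.015) were lower too, and the BMP receptor Bmpr1a was higher (0.25, SE 0.06, adjusted p = 0.0006). Bmpr1a lost its call under library totals (0.078, adjusted p = 0.55) and without a count filter (0.18, adjusted p = 0.088). Smad6 lost it without XY Te GDX mouse 13306 (-0.34, adjusted p = 0.053). Among intact mice, Fli1 (-0.72, SE 0.17, adjusted p = 0.0022) and Thbd (-0.63, SE 0.18, adjusted p = 0.019) were also lower in XX, although Thbd did not pass in the fit of intact mice alone (-0.65, adjusted p = 0.063).

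The second question was how removal of the gonads changed the members. In mice that had ovaries, 4 of 10 members were higher after ovariectomy and 1 was lower, where 36.0% of all genes were higher and 33.4% lower. In mice that had testes, 5 of 10 were higher after castration and 1 lower, where 33.4% were higher and 29.9% lower. The stabilins rose, Clec4g fell, and Kdr, Tek, Lyve1 and Cdh5 did not pass in either. With so many genes changed, counts of this size are no result about these genes as a set.

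Stab2 had 27.1 at the lowest, 43.1 at the median and 70.9 at the highest in XX Ov Intact livers and 33.2, 45.1 and 62.1 in XY Ov Intact livers. After ovariectomy it had 55.5, 64.4 and 114 in XX and 54.6, 85.7 and 98.5 in XY. Of the 12 ovariectomized livers, 7 were above every intact Ov liver. The log2 change was 0.72 (SE 0.15, adjusted p = 5.5e-05), and that of Stab1 0.77 (SE 0.16, adjusted p = 3.5e-05). Both calls ended with offsets for transcript length and GC content (0.13 and -0.027) and with 1 surrogate variable (0.23 and 0.23). The surrogate variable lay between -0.16 and 0.030 in GDX livers and between -0.22 and 0.41 in intact livers. It partly follows GDX and can take up some of the GDX change itself. Calls lost under it, here and below, are therefore no independent check.

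After castration Stab2 changed by 0.75 (SE 0.15, adjusted p = 4e-05) and Stab1 by 0.76 (SE 0.16, adjusted p = 5.4e-05). Means of Stab1 were 28.0 ± 9.48 in Ov Intact, 47.98 ± 10.2 in Ov GDX, 29.7 ± 8.61 in Te Intact and 50.5 ± 11.1 in Te GDX livers (SD, n = 12 each). GDX and intact livers overlapped for both stabilins.

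Clec4g went the other way. It had 33.1, 57.4 and 68.2 in XX Ov Intact livers and 41.9, 47.2 and 71.2 in XY Ov Intact livers, as lowest, median and highest. After ovariectomy it had 17.3, 26.7 and 31.1 in XX and 20.6, 32.1 and 36.5 in XY. Of the 12 ovariectomized livers, 10 lay below every intact Ov liver, and the log2 change was -0.91 (SE 0.12, adjusted p = 9.1e-09). After castration the change was -0.50 (SE 0.12, adjusted p = 0.00029), from a mean of 41.6 ± 8.15 to 29.3 ± 5.19 (SD, n = 12 each), with 5 of 12 livers below every intact Te liver.

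Tie1 was higher after ovariectomy (0.42, SE 0.14, adjusted p = 0.01) and castration (0.39, SE 0.14, adjusted p = 0.017), and so was Acvrl1 (0.46, SE 0.16, adjusted p = 0.0094, and 0.93, SE 0.16, adjusted p = 3.6e-06). Pecam1 was higher after castration (0.55, SE 0.16, adjusted p = 0.0032) and did not pass after ovariectomy (0.21, SE 0.16, adjusted p = 0.25). The ovariectomy calls of Tie1 and Acvrl1 and the castration call of Tie1 ended under the same 2 alternatives, and the castration call of Pecam1 ended with the surrogate variable. The Pecam1 and Acvrl1 values average XX and XY mice, which differed as the interaction above shows.

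Over all 24 GDX and 24 intact mice, 5 of 10 members were higher and 1 lower after GDX, where 41.2% of all genes were higher and 34.9% lower. They were Stab1 (0.77, SE 0.11), Stab2 (0.74, SE 0.11), Acvrl1 (0.70, SE 0.11), Tie1 (0.40, SE 0.10), Pecam1 (0.38, SE 0.11) and Clec4g (-0.71, SE 0.08), the 6 that passed after castration. The call of Tie1 ended with offsets for transcript length and GC content (-0.0074) and with 1 surrogate variable (0.025), that of Stab1 with the offsets (0.098) and that of Pecam1 with the surrogate variable (0.037). The summed level of the 10 members ran from 188 to 373 normalized CPM in intact and from 192 to 480 in GDX livers, with overlap. That of the other sinusoidal genes ran from 599 to 1384 in intact and from 533 to 859 in GDX livers. This sum leans on Cd36, with an average log2 CPM of 8.54 against 5.93 for Fcgr2b, the next highest. Over the 48 fits without 1 mouse, Cd36 changed by -1.03 to -0.89 after ovariectomy and by -0.56 to -0.42 after castration. The sum is therefore no measure of the sinusoidal genes as a set.

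The VEGF receptor Kdr, the angiopoietin receptor Tek and the hyaluronan receptor Lyve1 did not pass in any of the comparisons as fitted. Median levels of Kdr over the 8 groups lay between 32.4 (XX Ov GDX) and 59.1 (XY Ov GDX), and single livers between 24.7 and 75.99. Median levels of Tek lay between 9.54 (XX Ov GDX) and 15.2 (XY Ov GDX), and those of Lyve1 between 7.81 (XY Te GDX) and 11.2 (XX Ov GDX). Within 1 group Lyve1 spread widely, from 3.04 to 21.9 in XX Te GDX livers and from 1.56 to 11.5 in XY Te Intact livers. All 8 groups overlapped for each of these genes.

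The size of the GDX changes followed transcript length across the whole transcriptome. With genes split into 5 equal bins by transcript length, the median log2 change ran from -0.59 in the bin of shortest transcripts to 0.43 in the longest after ovariectomy, and from -0.42 to 0.30 after castration. Clec4g (1442 nucleotides) lies in the shortest bin, and Stab1 (7999), Stab2 (8228) and Kdr (5924) in the longest. Clec4g, Stab1 and Stab2 each changed in the direction of its bin, and Kdr did not pass.

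With offsets that remove the trend with length and GC content, an alternative chosen after the data were seen, the ovariectomy changes became -0.027 for Stab1, 0.13 for Stab2, -0.066 for Tie1 and 0.065 for Acvrl1. None of these 4 passed (adjusted p = 0.83, 0.25, 0.62 and 0.70). That fit used library totals in place of TMM scaling, so its shifts cannot be given to length and GC content alone. Library totals by themselves moved the median of all genes by 0.21 after ovariectomy and 0.20 after castration. Clec4g stayed lower (-0.52, adjusted p = 3.7e-05) and Kdr became lower (-0.38, adjusted p = 0.034). After castration, Acvrl1 (0.65, adjusted p = 0.00016), Pecam1 (0.49, adjusted p = 0.0068), Stab2 (0.36, adjusted p = 0.002) and Stab1 (0.22, adjusted p = 0.049) passed, and Tie1 (0.051, adjusted p = 0.71) and Clec4g (-0.23, adjusted p = 0.055) did not. With 1 surrogate variable the ovariectomy values of Tie1 and Acvrl1 were -0.064 and 0.098, and the castration values of Tie1 and Pecam1 0.11 and 0.31. In the XX and XY comparison within GDX mice the medians fell from 0.12 in the shortest through 0.1, 0.086 and 0.064 to 0.061 in the longest bin. With the offsets its Pecam1, Acvrl1 and Cdh5 values were -1.93, -1.11 and -0.77, and the number of members called rose from 3 to 7.

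**Figure D4:**
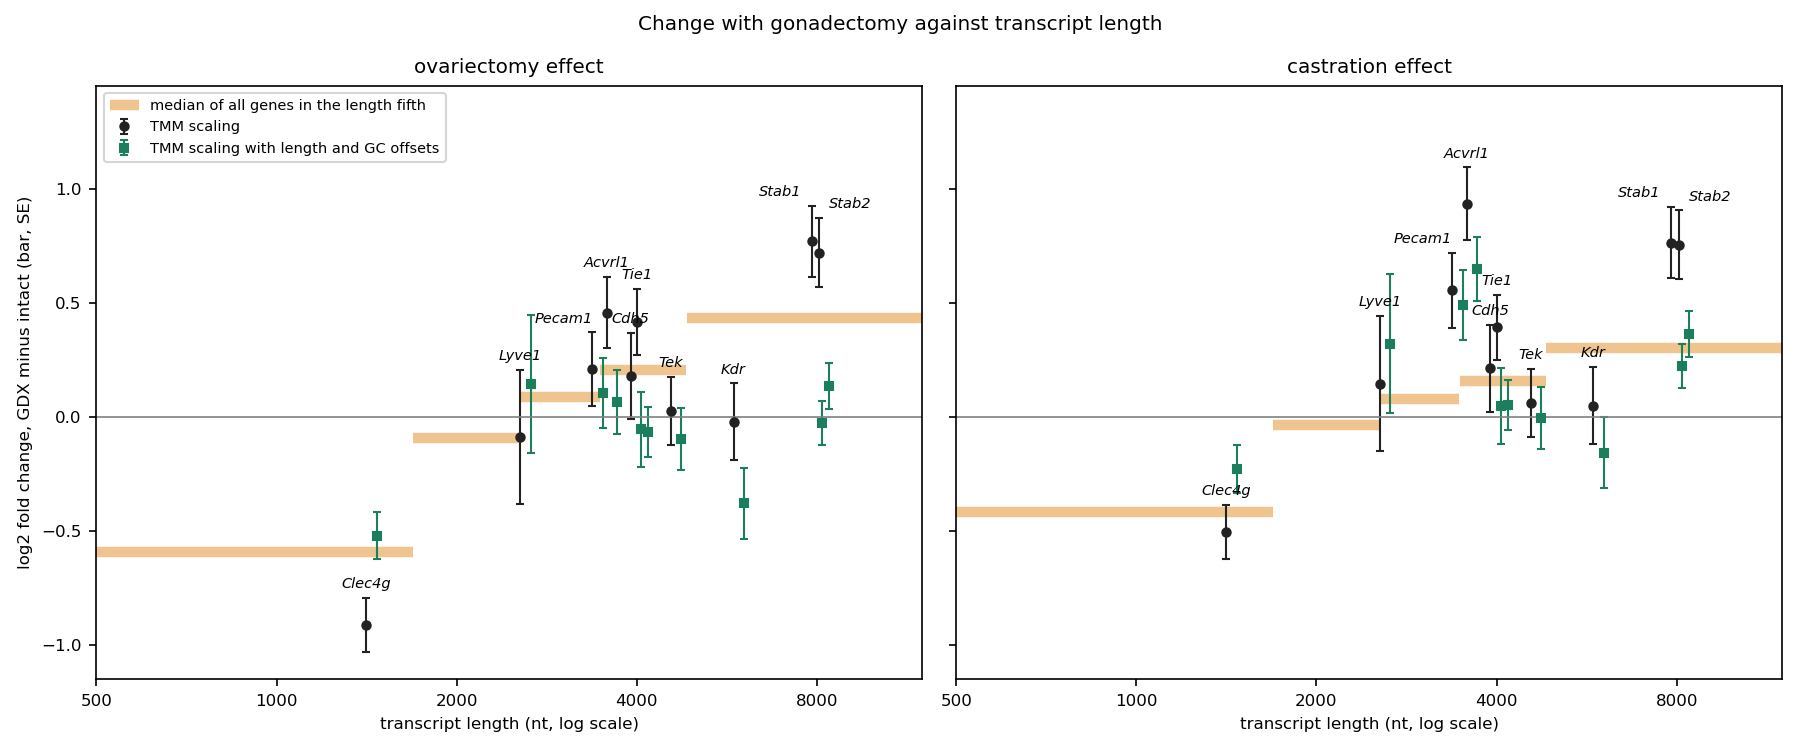
Log2 fold change, GDX minus intact (y axis), of the 10 genes against transcript length (log x axis), after ovariectomy (left) and castration (right). Black points have TMM scaling. Green squares have length and GC offsets on library totals, and the TMM in their key does not apply. Bars are 1 SE, and orange bands give the median of all genes in each length bin. The bands climb from -0.59 to 0.43 (left) and from -0.42 to 0.30 (right), and the stabilins lie near 0.75 without the offsets and at 0.36 or below with them.

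Of the other sinusoidal genes, Wnt2 had the largest change after both operations. Wnt2, a Wnt ligand of the sinusoidal endothelium near the central vein, had a mean of 5.90 ± 2.43 normalized CPM in Ov Intact and 2.10 ± 0.715 in Ov GDX livers, and 4.997 ± 1.46 in Te Intact and 2.02 ± 0.733 in Te GDX livers (SD, n = 12 each). Its log2 change was -1.46 (SE 0.21, adjusted p = 5.9e-08) after ovariectomy and -1.30 (SE 0.21, adjusted p = 1.2e-06) after castration, and with the offsets -1.45 and -1.29. Bmp2, a ligand on the ALK1 pathway list, fell by 0.76 (SE 0.13, adjusted p = 2.7e-06) and by 0.42 (SE 0.13, adjusted p = 0.0046) on the log2 scale, from means of 24.03 to 14.3 and of 20.8 to 15.5. The castration value of Bmp2 did not pass under library totals (-0.22, adjusted p = 0.15).

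The counts over the lists are read against all genes, of which 36.0% were higher and 33.4% lower after ovariectomy and 33.4% higher and 29.9% lower after castration. After ovariectomy, 1 of 19 sinusoidal genes was higher and 7 lower, 4 of 22 pan-endothelial genes were higher and 7 lower, and 4 of 12 VEGF and angiopoietin genes were higher and 0 lower. After castration these counts were 2 and 5 of 19, 7 and 2 of 22, and 3 and 0 of 12. Many of them lie near or below the shares of all genes and are no result about a list. Nrp2, a VEGF co-receptor, was higher in both (0.86, SE 0.17, adjusted p = 2.6e-05, and 0.76, SE 0.17, adjusted p = 0.00017). Svep1, at a low average log2 CPM of 0.078, rose more. Over the 48 fits without 1 mouse it changed by 1.67 to 2.2 after ovariectomy and by 0.82 to 1.25 after castration. It passed in 48 and 47 of these fits. The ALK1 list had 4 of 20 higher and 8 lower after ovariectomy and 4 and 6 after castration. The type II receptor Acvr2b was higher in both (0.71, SE 0.17, adjusted p = 0.00042, and 0.83, SE 0.17, adjusted p = 8.1e-05). Smad4 was lower in both (-0.31 to -0.27 and -0.26 to -0.22 over the 48 fits without 1 mouse). Smad9 was lower after castration (-1.5 to -1.1 over the same fits). Of the 12 Kupffer cell markers 1 was higher and 4 lower after ovariectomy, and 3 were higher and 1 lower after castration. With 1 surrogate variable in the model Nrp2 did not pass after ovariectomy (0.33, adjusted p = 0.064).

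The third question was whether ovaries and testes set different levels. Among intact mice, 1 of 10 members was higher with ovaries and 0 lower, where 14.1% of all genes were higher and 11.3% lower. Clec4g had a mean of 52.7 ± 11.8 in Ov Intact and 41.6 ± 8.15 in Te Intact livers (SD, n = 12 each), a log2 difference of 0.34 (SE 0.12, adjusted p = 0.027), with 4 of the 12 Ov livers above every Te liver. The call was lost in the fit of intact mice alone, without a count filter, with 1 surrogate variable, with the offsets, and on leaving out any of 5 mice. Without XY Ov Intact mouse 89895 the difference was 0.28 (adjusted p = 0.094). Acvrl1 (0.38, SE 0.16, adjusted p = 0.077) and Pecam1 (0.25, SE 0.16, adjusted p = 0.25) did not pass, nor did the stabilins, Lyve1, Kdr, Tek, Tie1 and Cdh5.

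Of the 12 Kupffer cell markers 7 were higher with ovaries and 0 lower, with sums of 497 to 1632 in Ov and 396 to 1198 in Te livers, and of the 10 lymphocyte markers 8 were higher and 1 lower. Of 20 tested genes of the ALK1 list, the ligand Gdf2 was higher with ovaries (0.34, SE 0.09, adjusted p = 0.0044). Smad9 was lower (-1.06, SE 0.35, adjusted p = 0.021). Of 12 tested VEGF and angiopoietin genes, Angpt1 was higher (0.58, SE 0.21, adjusted p = 0.038) and Nrp1 lower (-0.35, SE 0.11, adjusted p = 0.016). Of 19 other sinusoidal genes tested, 3 were higher and 0 lower, where 14.1% of all genes were higher. The scavenger receptor Cd36 changed most (0.83, SE 0.15, adjusted p = 8.2e-05). Among GDX mice, formerly Ov and formerly Te livers differed in 0 of 10 members by edgeR's test and in 0 by DESeq2, with 0 at an unadjusted p under 0.05 by either tool, and 0.0908% of all genes passed. The difference between castration and ovariectomy passed for 0 of 10 members by either tool, with 2 at an unadjusted p under 0.05, where 5.60% of all genes passed. The 2 were Acvrl1 (0.48, SE 0.22, adjusted p = 0.19) and Clec4g (0.41, SE 0.17, adjusted p = 0.13). Without XX Ov Intact mouse 69572 Clec4g passed (0.46, adjusted p = 0.047).

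The members also varied together between mice of the same group. With the group means removed from log2 levels, the 45 pairs of members had a median Pearson r of 0.53 over 48 mice (range -0.14 to 0.90). Stab1 and Stab2 were the closest pair (r = 0.90), then Kdr and Tek (0.90) and Stab1 and Tie1 (0.89). Such values describe points that share a library and its scaling, and they carry no p.

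Some livers stood high or low in nearly all members. XX Ov GDX mouse 87592 had the highest level of its group in 10 of 10 members, with 114 for Stab2 and 74.8 for Kdr. XY Te GDX mouse 69848 had the lowest in 9 of 10 and XY Ov GDX mouse 88616 in 8 of 10, and for both Pecam1 still lay above every XX GDX liver, at 44.6 and 64.0. Mouse 89033 of XY Te Intact had the highest level in 8 of 10.

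Against the mean of the other 9 members, Cdh5 (r = 0.90), Tek (0.90), Tie1 (0.86), Stab1 (0.85), Kdr (0.82) and Stab2 (0.81) were close, Pecam1 was at 0.74, and Lyve1 (0.51), Acvrl1 (0.44) and Clec4g (0.11) followed less. Pecam1 (0.59), Cdh5 (0.58) and Acvrl1 (0.57) had the highest r with the mean of the Kupffer cell markers, and Stab1 (0.23) and Stab2 (0.22) the lowest. With the mean of the pan-endothelial genes, Pecam1 (0.73) and Cdh5 (0.80) had a higher r than this and Acvrl1 (0.46) a lower one. The 10 genes outside the members with the highest r to their mean were Oit3 (0.93), Arhgap31, Ets1, Eng, C1qtnf1, Atp2b4, Gpr182, Tinagl1, Robo4 and Tmem2 (0.88), against a median of 0.030 over all genes tested. Oit3 and Gpr182 are on the list of other sinusoidal genes, Eng and Robo4 on that of pan-endothelial genes, and Eng encodes endoglin, the co-receptor of ALK1. Under library totals 9 of these 10 were again among the top 10.

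**Figure D5:**
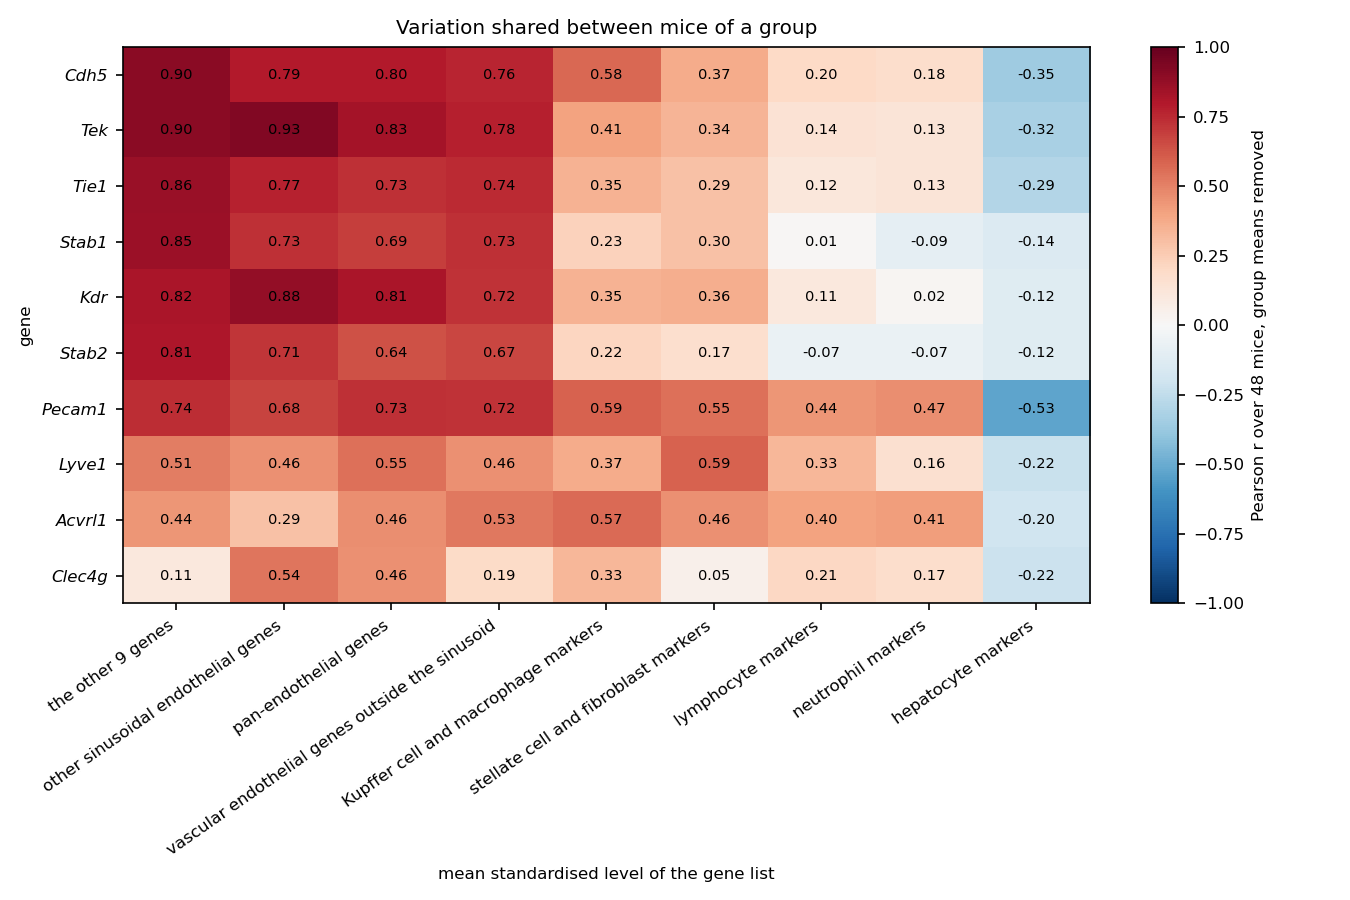
Pearson r over 48 mice, with group means removed, between each of the 10 genes (rows) and the mean standardised level of gene lists (columns), from -1 (blue) to 1 (red). Cdh5, Tek, Tie1, Stab1, Kdr and Stab2 are at 0.81 or more with the other 9 genes, Clec4g is at 0.11, and Pecam1, Cdh5 and Acvrl1 lead the Kupffer cell column.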

How the data were processed

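Per the submitters' processing notes, the authors aligned reads to GRCm39 with STAR 2.7.10a and used DESeq2 1.36.0. The deposited table holds whole-number counts of reads per Ensembl gene, not normalized, for 48 mice, and 4 summary lines of unassigned reads that were left out of library sizes and tests (reads outside genes were 3.47% to 11.3% of all reads). Strand setting, annotation release and trimming are not given in the sources used here, so overlapping genes can exchange reads. The study's DESeq2 contrasts guided the comparisons.

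Symbols were matched to gene identifiers with tables of gene names. Counts were tested with edgeR 4.0.16 (quasi-likelihood test, TMM scaling, filterByExpr, Benjamini-Hochberg adjustment over all 15414 genes, threshold 0.05) in a model of 8 group means over 48 mice, in R 4.3.3. Contrasts average the groups named. Alternatives were DESeq2 1.42.0, its size factors, library totals, other count filters, the compared groups alone, 1 surrogate variable (sva 3.50.0), each mouse left out, a fold change above 1.5 and, added after the data were seen, offsets for transcript length and GC content (loess span 0.3, for 13077 of 15414 genes, 84.8%). The fit with these offsets used library totals without TMM scaling, so it changed the scaling too. The scripts were tested on simulated data. Normalized CPM is the CPM on TMM-scaled library sizes. Correlations used log2(CPM + 0.5). A group's mice are separate animals, and precision at 13071874 to 20045141 reads per mouse is given by the SD and SE between them. Promoters came from RefSeq (GRCm38.p6) and lengths from NCBIM37.

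The members and all gene lists were chosen with earlier results of these data known. All 10 members are described in every comparison, genes of the VEGF and ALK1 lists may be named whatever their result, and from every other list at most the 2 with the largest change past the threshold. The genes most like the members are the 10 with the highest r.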

Additional observations from a re-analysis of the deposited data

Results flagged for a closer look

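A total of 5 values stood apart from the other 5 mice of their group by Dixon's criterion, of 80 sets of 6 mice tested, and chance gives about 1 in 20. XX Ov GDX mouse 87592 was high in Stab2 (114) and Kdr (74.8). XY Ov Intact mouse 69065 was high in Lyve1 (22.3), XX Te Intact mouse 11587 in Kdr (62.6) and XY Te Intact mouse 89033 in Tek (19.3).

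In 2 members the difference between XX and XY livers itself differed between GDX and intact mice, by the interaction term of the model: Pecam1 (-1.12, SE 0.23, adjusted p = 0.0098) and Acvrl1 (-0.90, SE 0.22, adjusted p = 0.025). GDX and intact mice also differ in time on the diet, and this cannot be told apart.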

How the results depend on the processing

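No paired analysis was possible because the labels number each animal separately and no animal or number recurs in a second group. Pecam1, Acvrl1 and Cdh5 stayed lower in XX GDX livers past the threshold under every alternative run, with ranges of -1.96 to -1.77, -1.19 to -1.005 and -0.84 to -0.68 over the 48 fits without 1 mouse. The number of members called in that comparison, 3, became 4 by the DESeq2 test, 6 with DESeq2 size factors, 7 with library totals and 5 with no filter. It became 6 with at least 10 counts in every mouse, 5 in the fit of GDX mice alone and 7 with length and GC offsets. Without 1 mouse it was 3 to 6 (6 without XY Te GDX 69848, XY Te Intact 70314, XX Ov GDX 87592, XY Ov GDX 88616, XY Ov Intact 89895 or XX Ov Intact 97856, and 5 without XX Te GDX 93559). Over all XX and XY mice 3 became 6 with library totals, 5 with 1 surrogate variable, 6 with the offsets and 3 to 5 without 1 mouse. The interaction gave 1 to 2 without 1 mouse, with 1 left without XX Te Intact 14614. For ovaries against testes 1 became 0 without a filter, in intact mice alone and at a fold change above 1.5, 2 with 1 surrogate variable, and 0 to 2 without 1 mouse (2 without XX Te Intact 14614, 0 without XX Ov Intact 49580 or 97856, XY Te Intact 89033, XY Ov Intact 89895 or XX Te Intact 98893). For ovariectomy 5 became 2 with 1 surrogate variable, 2 with the offsets and 3 at a fold change above 1.5. Over all GDX and intact mice 6 became 5 with the offsets, 5 with 1 surrogate variable, 7 with library totals and 4 at a fold change above 1.5. For castration 6 became 3 at that fold change. The fit restricted to the compared groups has no value for contrasts that use all 48 mice. Castration minus ovariectomy had 1 in place of 0 with 1 surrogate variable, and 0 to 1 without 1 mouse.

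Reversed values were all in GDX contrasts. With the offsets they were Stab1 (-0.027) and Tie1 (-0.066) after ovariectomy and Kdr (-0.27) and Tie1 (-0.0074) over all GDX mice. With 1 surrogate variable, which partly follows GDX, they were Tie1 (-0.064) and Cdh5 (-0.45) after ovariectomy and Cdh5 (-0.31) over all GDX mice. The cause was not tested. At 22 to 277 reads per library Acvrl1 has the least depth.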
